A study of Ovis aries with 6 samples.

Results

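The genes described here build the mitotic spindle, attach chromosomes to it and divide the cell, and they were followed in granulosa cells of atretic and healthy sheep follicles. The list held 35 genes that act as entry kinases, spindle checkpoint proteins, centromere proteins, spindle motors and cytokinesis proteins. Each was located by its gene name in the deposited table, and where several loci bore the name, the protein-coding one with the most counts on average was taken. This found 28 of the 35 among 34119 loci, of which 28479 had a gene name. All 28 were among the 14702 named loci with a mean FPKM (fragments scaled by locus length and sequencing depth) of at least 1 that were tested. CCNB1, BIRC5, PTTG1, CENPE, CENPF, UBE2C and MKI67 were not found under these names.

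Mitosis begins when CDK1 bound to a cyclin is activated. Polo and aurora kinases then help to build the spindle, while the spindle checkpoint holds CDC20, an activator of the ubiquitin ligase APC/C, until every kinetochore is attached. RNA of most of these genes peaks late in the cell cycle, so that its level in a tissue is commonly read as a sign of dividing cells. Granulosa cells line the follicle around the oocyte and divide as a healthy follicle grows. In atresia, the degeneration that most follicles undergo, granulosa cells are known to stop dividing and to die.

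Total RNA of granulosa cells was sequenced after removal of ribosomal RNA, in 3 libraries from atretic and 3 from healthy follicles of sheep (Ovis aries). The labels call the libraries of a group independent biological replicates, but give no animals, age, breed, follicle size or treatment, and p-values therefore measure the spread between these libraries alone. Total counts lay between 87455037 and 91597388 per library. The design asks which RNAs differ between granulosa cells of follicles in degeneration and of intact ones.

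Healthy replicate 3 differed from all other libraries. Its biological coefficient of variation was 0.45 and 0.447 against the other healthy libraries and 0.404 to 0.413 against the atretic ones, while all other pairs within a group lay between 0.137 and 0.18. The 5 granulosa cell markers that lay alone on a locus (FSHR, FOXL2, INHBA, NR5A2 and CDH2) were detected in every library and summed to between 6242 and 6810.2 CPM (counts scaled to a common depth, TMM-normalised) in atretic. They summed to 5695 and 5670.1 CPM in healthy replicates 1 and 2 but to 21666 CPM in healthy replicate 3, where INHBA alone had 15021 CPM and CDH2 had 955 CPM against 794 and 784 CPM in the other healthy libraries. Results are therefore given with and without that library.

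In the atretic libraries RNA of the mitotic genes was at a lower level, with a median log2 fold change of -0.52 where the median of all tested loci was -0.03. All 28 fold changes were negative, against 54.0% of all tested loci. In 24 of the 28 genes the highest atretic library was below the lowest healthy one, against 10.8% of all tested loci and 14.2% of the protein-coding ones. The size was moderate: the atretic mean was between 59.5 and 97.9% of the healthy mean, with a median of 69.7%. The 28 genes together summed to 1398, 1332 and 1464 CPM in the atretic libraries and to 1721, 1727 and 2135 CPM in the healthy ones, in the order of their replicate numbers, which holds for all values below.

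None of the 28 passed edgeR's quasi-likelihood test at an adjusted p of 0.05 over all loci, where 0.0204% of all tested loci were called lower and 0.0476% higher. At an unadjusted p under 0.05, 21 were lower and none higher (6.41% of all tested loci were lower, 8.64% of the protein-coding ones, and 6.37% of all tested loci were higher), and limma called none, on voom weights or on log2 FPKM. DESeq2 called 9 lower (1.75% of all tested loci). Without healthy replicate 3, edgeR called 13 of the 28 lower and none higher (7.91% of all tested loci were called lower, 10.9% of the protein-coding ones), with adjusted p from 0.00346 to 0.0434. The median log2 fold change was then -0.40, against -0.01 over all tested loci. The 13 were CDK1, CCNB2, PLK1, AURKA, BUB1B, CDC20, CENPA, HJURP, KIF4A, CKAP2, KIF20A, RACGAP1 and TOP2A, and all 9 genes of the DESeq2 call were among them. DESeq2 without that library called 19 lower and 1 higher, KIF23 (10.3% of all tested loci were called lower). For 1 gene, 3 libraries against 3 allow no two-sided exact permutation p below 0.1.

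The data come from bulk RNA, in which fewer dividing cells and less of these RNAs per cell cannot be told apart. Of the 9 granulosa cell markers found, shared loci included, 9 had a negative log2 fold change, against 54.0% of all tested loci. Their median was -0.51. Without healthy replicate 3 the median was 0.03, with 4 negative and 5 positive. In that fit edgeR called HSD17B1 lower and 3 higher (7.91 and 10.9% of all tested loci). HSD17B1, on a locus shared with NAGLU, had 185, 211 and 174 CPM against 273, 266 and 299 CPM, without overlap. Markers of other cell types moved with the groups in part. The 8 macrophage markers that lay alone on a locus summed to 68.8 to 83.2 CPM in atretic, to 279 and 258 CPM in healthy replicates 1 and 2 and to 83.2 CPM in healthy replicate 3. All 8 had a lower atretic mean, and in 4 the groups did not overlap. The 6 connective tissue markers summed to 61.3 to 65.8 CPM in atretic and to 146, 145 and 44.2 CPM in healthy. Of these, 5 had a lower atretic mean, 2 of them without overlap, and DCN was at 109.7% of the healthy mean. Of the 6 endothelial markers, CDH5 and CLDN5 were at 0 in at least 1 library. The 6 summed to 17.7 to 19.0 CPM against 37.9, 45.8 and 23.1 CPM, and 4 had a lower atretic mean. Only PECAM1 was lower in atretic without overlap, with 5.21 to 7.5 CPM against 22.2, 30.6 and 16.3 CPM. VWF had a higher atretic mean with overlap (4.23, 5.31 and 5.89 CPM against 5.57, 4.59 and 3.23 CPM). CLDN5 was higher in atretic without overlap, but at very low levels (0.0531, 0.087 and 0.0127 CPM against 0 in each healthy library). The 5 lymphocyte markers, CD79A at 0 in at least 1 library, summed to 2.49 to 3.68 CPM against 8.48, 10.3 and 2.08 CPM. Each of the 5 had a lower atretic mean, but the groups overlapped in each. The 5 oocyte markers, with BMP15, ZP4 and DDX4 at 0 in at least 1 library, summed to 3.06 to 3.26 CPM against 10.4, 9.57 and 0.746 CPM. Again each had a lower atretic mean with overlap between the groups. The groups of all 4 theca markers overlapped. LHCGR, which mature granulosa cells also express, had 42.9, 43.7 and 43.1 CPM against 17.8, 10.8 and 308 CPM. STAR, on a locus shared with LSM1, had 9.72, 13.1 and 12.9 CPM against 46.1, 42.8 and 7.88 CPM. INSL3, on a locus shared with JAK3, had 263, 309.5 and 274 CPM against 274, 275 and 574 CPM. CYP17A1 was very low, with 0.146, 0.0995 and 0.42 CPM against 0, 0.147 and 0.0585 CPM. In healthy replicate 3 the connective tissue, lymphocyte and oocyte sums were thus below those of all atretic libraries and the macrophage sum was near the highest atretic one, while the mitotic genes had their highest TMM-normalised sum there. The part of these other cells in the result was not tested.

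**Figure D1:**
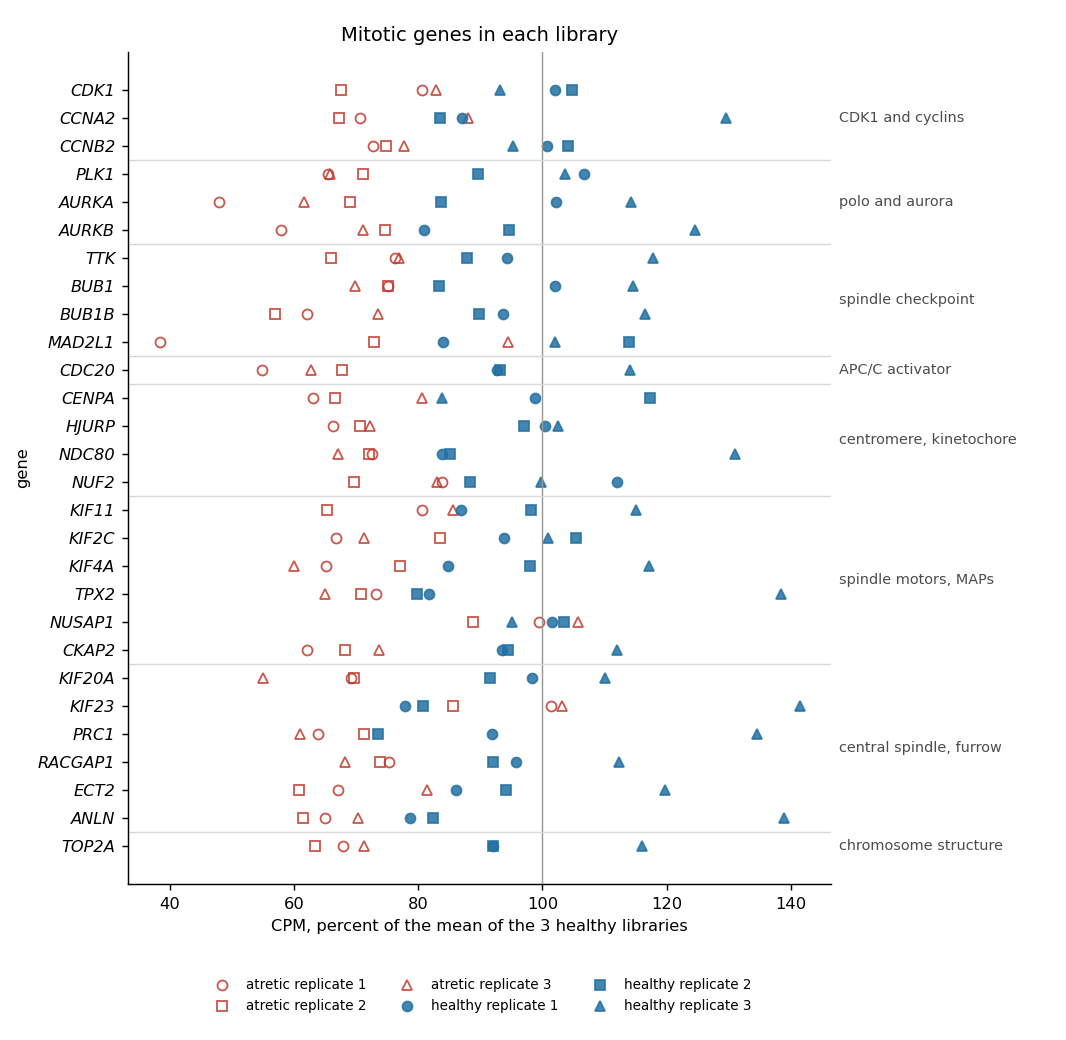
Level of each of the 28 mitotic genes in each of the 6 libraries, as CPM in percent of the mean of the 3 healthy libraries, with genes on the vertical axis in order of role. Open red symbols are atretic and filled blue symbols healthy libraries. In 24 genes all red symbols lie left of all blue ones, and CCNA2, MAD2L1, NUSAP1 and KIF23 are the 4 exceptions.

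Of CDK1 and its cyclins, CDK1, the kinase that drives entry into mitosis, lay on chromosome 25 (16245947 to 16260656). It had 85.4, 71.5 and 87.8 CPM in atretic and 108, 111 and 98.7 CPM in healthy. The groups did not overlap, and the log2 fold change was -0.38 (SE 0.12, edgeR adjusted p = 0.3), or -0.43 without healthy replicate 3 (edgeR adjusted p = 0.0154). CCNB2, a B-type cyclin on chromosome 7, had 14.6, 15 and 15.6 CPM against 20.2, 20.9 and 19.1 CPM. Its libraries lay close together within each group and did not overlap between them. Its log2 fold change was -0.41 (SE 0.12, edgeR adjusted p = 0.274, DESeq2 adjusted p = 0.0253), and it was -0.45 without healthy replicate 3 (edgeR adjusted p = 0.0242). The CCNB2 locus shares 40.2% of its span with MYO1E on the other strand. CCNA2, the A-type cyclin of S phase and early mitosis on chromosome 6, had 14.3, 13.6 and 17.8 CPM against 17.6, 16.9 and 26.2 CPM. Here the groups overlapped, and the difference depended mostly on healthy replicate 3, since the log2 fold change moved from -0.41 (edgeR adjusted p = 0.497) to -0.18 without it (edgeR adjusted p = 0.427).

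Among the polo and aurora kinases, PLK1, which acts at centrosomes and kinetochores and lay on chromosome 24 (22017700 to 22027881), had 26.1, 28.3 and 26.2 CPM in atretic and 42.5, 35.7 and 41.3 CPM in healthy. Atretic PLK1 RNA was at 67.5% of the healthy mean with no overlap. The log2 fold change was -0.57 (SE 0.12, edgeR adjusted p = 0.17, DESeq2 adjusted p = 0.00563), and it was -0.54 without healthy replicate 3 (edgeR adjusted p = 0.00763). AURKA, the kinase of centrosome maturation on chromosome 13 (61875539 to 61893433), had 6.76, 9.72 and 8.68 CPM against 14.4, 11.8 and 16.1 CPM. Its log2 fold change, -0.75 (edgeR adjusted p = 0.249 with an SE of 0.20, DESeq2 adjusted p = 0.0406), was the most negative of the 28, and it was -0.64 without healthy replicate 3 (edgeR adjusted p = 0.0354). AURKB, the kinase of the chromosomal passenger complex on chromosome 11, had 10.1, 13.0 and 12.4 CPM against 14.1, 16.5 and 21.7 CPM. Its groups did not overlap either, but it passed in neither edgeR fit, with a log2 fold change of -0.56 (adjusted p = 0.333) and of -0.37 without healthy replicate 3 (adjusted p = 0.122).

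The 4 spindle checkpoint genes were less uniform. BUB1B, which encodes the CDC20 inhibitor BubR1 on chromosome 7 (35783432 to 35838555), had 34.1, 31.2 and 40.3 CPM in atretic and 51.4, 49.3 and 63.9 CPM in healthy. BUB1B had a log2 difference of -0.64 (SE 0.15, edgeR adjusted p = 0.211, DESeq2 adjusted p = 0.0383) and -0.52 without healthy replicate 3 (edgeR adjusted p = 0.0111). The checkpoint kinase TTK on chromosome 8 had 40.5, 35 and 40.9 CPM against 50.1, 46.7 and 62.6 CPM. BUB1, a kinetochore kinase on chromosome 3, had 26.5, 26.5 and 24.6 CPM against 36.0, 29.4 and 40.4 CPM. In TTK and BUB1 the groups did not overlap and both log2 fold changes were -0.45, but neither passed edgeR without healthy replicate 3 (edgeR adjusted p = 0.0528 and 0.0707, DESeq2 adjusted p = 0.0326 and 0.0404). MAD2L1, another CDC20 inhibitor, on chromosome 6, varied widely within the atretic group, with 5.53, 10.5 and 13.6 CPM against 12.1, 16.4 and 14.7 CPM, and the groups overlapped (log2 fold change -0.55, SE 0.33, edgeR adjusted p = 0.558).

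CDC20, the target of this checkpoint, lay on chromosome 1 (18627846 to 18631785). It had 27.6, 34.1 and 31.6 CPM in atretic and 46.7, 46.9 and 57.5 CPM in healthy. The gap between the groups was the widest of the 28 genes, since the lowest healthy library was 1.37 times the highest atretic one. For CDC20 the log2 fold change was -0.69 (SE 0.14, edgeR adjusted p = 0.156, DESeq2 adjusted p = 0.00637) and -0.59 without healthy replicate 3 (edgeR adjusted p = 0.00424).

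At the centromere, HJURP, the chaperone that deposits the histone CENP-A, lay on chromosome 1 (7250913 to 7266900). HJURP had 39.8, 42.4 and 43.4 CPM in atretic and 60.3, 58.3 and 61.6 CPM in healthy. The libraries of each group lay close together, and the lowest healthy library was 1.34 times the highest atretic one. Its log2 fold change of -0.52 (SE 0.10) had the smallest adjusted p of the 28 by edgeR (0.141), with DESeq2 adjusted p = 0.000609, and was -0.50 without healthy replicate 3 (edgeR adjusted p = 0.00346). CENPA, the gene of that histone on chromosome 3 (35458288 to 35465970), had 36.8, 38.9 and 47.0 CPM against 57.7, 68.5 and 48.9 CPM. Here healthy replicate 3 was the lowest healthy library, and leaving it out moved the log2 fold change from -0.51 (edgeR adjusted p = 0.289) to -0.63 (edgeR adjusted p = 0.00576). NDC80 on chromosome 23 and NUF2 on chromosome 1 encode partners in the kinetochore complex that grips microtubules. NDC80 had 27.8, 27.6 and 25.7 CPM against 32.1, 32.6 and 50.2 CPM, and NUF2 had 11.0, 9.15 and 10.9 CPM against 14.7, 11.6 and 13.1 CPM. Neither overlapped between the groups, and neither passed without healthy replicate 3, with log2 fold changes of -0.26 and -0.35 (edgeR adjusted p = 0.105 and 0.165).

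Among the spindle motors and microtubule-binding proteins, CKAP2, which stabilises microtubules and lay on chromosome 10 (23890095 to 23912105), had 40.8, 44.8 and 48.4 CPM in atretic and 61.5, 62.1 and 73.6 CPM in healthy. Its log2 fold change was -0.56 (edgeR adjusted p = 0.186, DESeq2 adjusted p = 0.0226) and -0.47 without healthy replicate 3 (edgeR adjusted p = 0.00803). The chromokinesin KIF4A on chromosome X had 20.2, 23.9 and 18.6 CPM against 26.3, 30.4 and 36.3 CPM, with log2 fold changes of -0.57 and, without healthy replicate 3, -0.44 (edgeR adjusted p = 0.278 and 0.0434). These were the 2 genes of the 6 in this class that passed edgeR without that library.

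KIF11, the motor that pushes spindle poles apart, on chromosome 22, had 52.5, 42.6 and 55.8 CPM in atretic and 56.6, 64.0 and 75.0 CPM in healthy. The groups of KIF11 were only just apart, at a ratio of 1.02, with log2 fold changes of -0.38 and, without healthy replicate 3, -0.27 (edgeR adjusted p = 0.392 and 0.158). KIF2C, a kinesin that takes microtubules apart at kinetochores, on chromosome 1, had 10.4, 13.0 and 11.1 CPM against 14.6, 16.4 and 15.7 CPM (log2 fold change -0.44, edgeR adjusted p = 0.31, and without healthy replicate 3 edgeR adjusted p = 0.0687 and DESeq2 adjusted p = 0.032). The KIF2C locus overlaps another locus on the same strand, so its counts are uncertain. TPX2, which activates AURKA on the spindle, on chromosome 13, had 85.1, 82.4 and 75.6 CPM against 95.1, 92.9 and 161 CPM. Its groups did not overlap, but the log2 fold change of -0.52 (edgeR adjusted p = 0.417) moved to -0.22 without healthy replicate 3 (edgeR adjusted p = 0.113).

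NUSAP1, a spindle-associated protein on chromosome 7 (36757431 to 36815982), did not follow the other genes of its class. It had 225, 201 and 239 CPM in atretic and 229.6, 234 and 215 CPM in healthy, which overlapped. The log2 fold change of NUSAP1 was -0.03 (SE 0.12, edgeR adjusted p = 0.944), and its sign turned under other settings, to 0.01 with TMM factors from protein-coding loci. Its locus was the 1 of the 28 without an annotated transcript, and 23.6% of its span overlaps OIP5 on the other strand.

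Of the central spindle and cleavage furrow genes, KIF20A, a kinesin needed for cytokinesis, on chromosome 5 (51969042 to 51978658), had 28.8, 29.0 and 22.9 CPM in atretic and 40.9, 38.1 and 45.8 CPM in healthy. Its log2 fold change was -0.63 (SE 0.14, edgeR adjusted p = 0.188, DESeq2 adjusted p = 0.02) and -0.56 without healthy replicate 3 (edgeR adjusted p = 0.0108). The KIF20A locus lies wholly within a locus of BRD8 and CDC23 on the other strand, with a mean of 8369.2 counts against 2739.7, and whether counting used strand is not stated. RACGAP1, the GTPase-activating subunit of centralspindlin, on chromosome 3 (146201260 to 146227310), had 71.1, 69.8 and 64.4 CPM against 90.4, 86.9 and 106 CPM. The groups did not overlap, with log2 fold changes of -0.46 and, without healthy replicate 3, -0.38 (edgeR adjusted p = 0.227 and 0.0136).

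KIF23, the motor subunit of the same centralspindlin complex, on chromosome 7 (17498383 to 17546048), had 147, 124 and 149.6 CPM in atretic and 113, 117 and 205 CPM in healthy. All 3 atretic libraries thus lay above healthy replicates 1 and 2 and below healthy replicate 3. The log2 fold change of KIF23 was -0.05 (SE 0.25, edgeR adjusted p = 0.956) and turned to 0.28 without healthy replicate 3 (edgeR adjusted p = 0.0719, DESeq2 adjusted p = 0.0299). Within a library, the ratio of KIF23 to RACGAP1 counts was 2.06, 1.78 and 2.32 in atretic and 1.25, 1.34 and 1.94 in healthy, which overlapped. A locus on the other strand that also bears the name KIF23 had 1052 to 1363 counts per library, within a span that covers 15.3% of the KIF23 locus.

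PRC1, which bundles the microtubules of the central spindle, on chromosome 18, had 30.4, 33.9 and 29.0 CPM against 43.7, 35 and 64.0 CPM. ECT2, which activates the small GTPase RhoA at the furrow, on chromosome 1, had 42.6, 38.6 and 51.7 CPM against 54.7, 59.8 and 76.1 CPM. ANLN, the scaffold of the contractile ring, on chromosome 4, had 40.9, 38.7 and 44.3 CPM against 49.5, 51.9 and 87.5 CPM. In all 3 genes the groups did not overlap and healthy replicate 3 was the highest library. Without it their log2 fold changes moved from -0.61 to -0.34 in PRC1, from -0.52 to -0.37 in ECT2 and from -0.61 to -0.30 in ANLN, and none passed edgeR (edgeR adjusted p = 0.0777, 0.0608 and 0.0549, DESeq2 adjusted p = 0.0437, 0.0264 and 0.0352).

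TOP2A, the topoisomerase that untangles sister chromatids, on chromosome 11 (22530422 to 22556822), had 197, 184 and 207 CPM in atretic and 267, 267 and 337 CPM in healthy. The groups did not overlap, and the log2 fold change was -0.56 (SE 0.14, edgeR adjusted p = 0.216, DESeq2 adjusted p = 0.0318), or -0.45 without healthy replicate 3 (edgeR adjusted p = 0.00392).

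**Figure D2:**
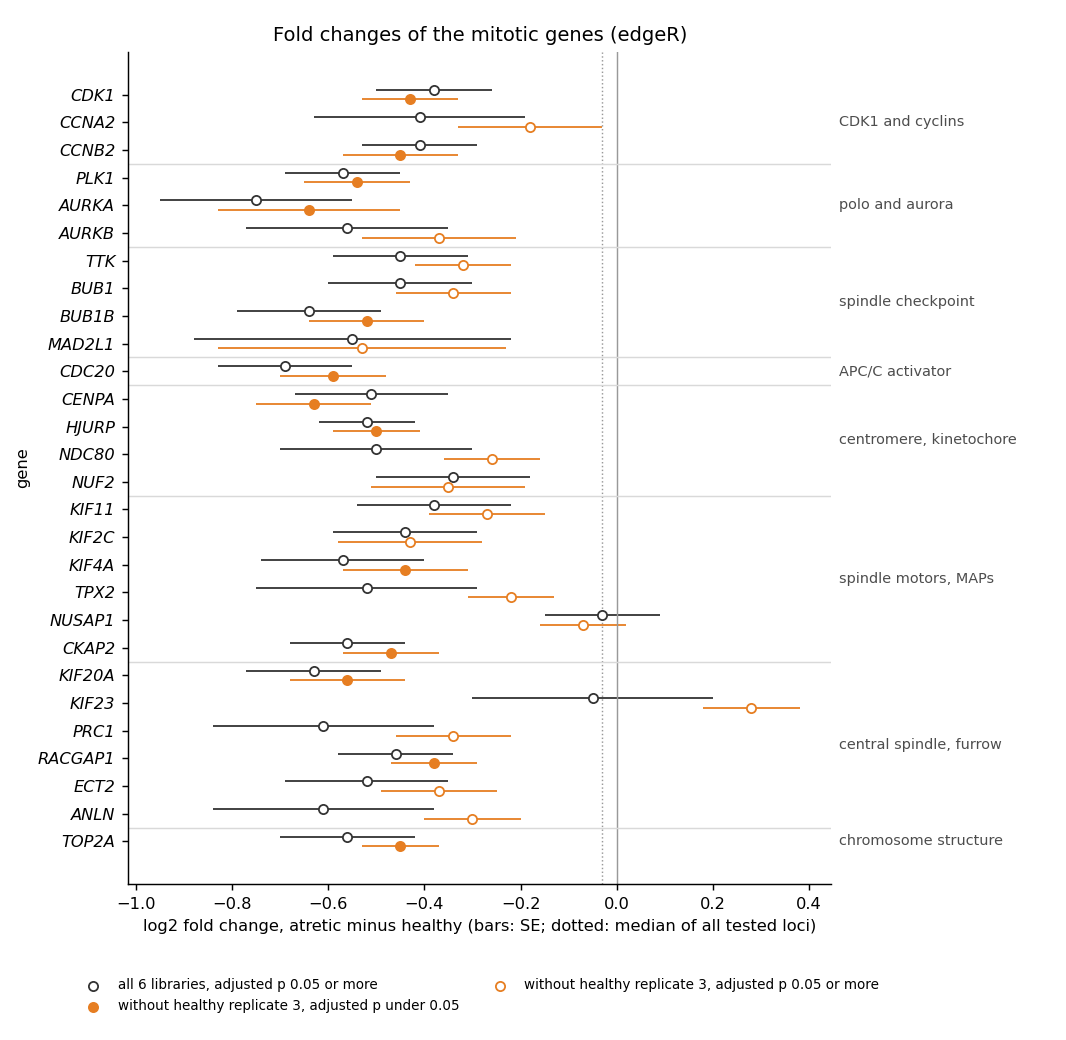
Log2 fold change (atretic minus healthy) of each mitotic gene from edgeR with all 6 libraries (grey) and without healthy replicate 3 (orange), with bars for the SE and filled symbols for an adjusted p under 0.05. The dotted line is the median of all tested loci. All 28 grey symbols are open, 13 orange ones are filled and only KIF23 has an orange symbol right of 0.

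Healthy replicate 3 had the highest CPM of all libraries in 20 of the 28 genes, against 31.8% of all tested loci, and the lowest of the healthy libraries in 4 (CDK1, CCNB2, CENPA and NUSAP1). That order depended on the scaling. With library totals in place of TMM factors healthy replicate 3 was the highest library in 7 of the 28 (16.2% of all tested loci). With the deposited FPKM values it was so in 7 also (17.1%), with RLE size factors in 20 (32.7%). TMM factors from protein-coding loci gave 22 (36.1%). The median log2 level of all tested loci in that library, relative to each locus's mean, was -0.27 with library totals and -0.24 with FPKM, against -0.01 with TMM. With library totals the 28 genes summed to 1379, 1365 and 1458 CPM in atretic and to 1881, 1879 and 1782 CPM in healthy, so that healthy replicate 3 had the lowest healthy sum. The count of mitotic genes without overlap was 22 with library totals, 21 with TMM factors from protein-coding loci and 23 with FPKM. The share of all tested loci without overlap under these scalings is not given here, so these counts have no background beside them. Leaving out healthy replicate 3 made the log2 fold change less negative in 23 of the 28 genes, although more of them then passed.

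Per unit of length, by deposited FPKM, TOP2A was the most abundant of the 28, with 19.7 ± 0.945 FPKM in atretic and 29.6 ± 0.433 in healthy (SD, n = 3). CDK1 followed with 16.4 ± 1.54 and 22.1 ± 4.28 FPKM, then CDC20 with 13.0 ± 1.61 and 21.3 ± 0.628 FPKM (SD, n = 3). In healthy, TOP2A lay above CDK1 and CDC20 by more than the SD of any of the 3, while CDK1 and CDC20 differed by less than the SD of CDK1. At the low end, NDC80 had 2.21 ± 0.102 and 3.13 ± 0.338 FPKM and NUF2 1.92 ± 0.162 and 2.5 ± 0.494 FPKM (SD, n = 3). The median over the 28 genes was 5.4 FPKM, and the lowest count of any of them in any library was 417.

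**Figure D3:**
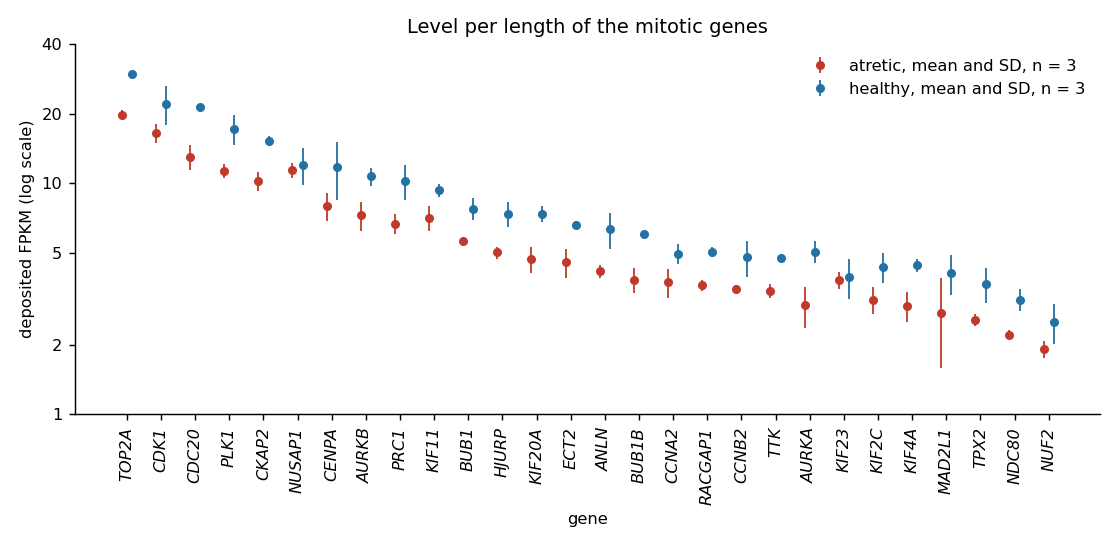
Deposited FPKM of each of the 28 mitotic genes on a log axis, ordered by the mean of all 6 libraries, with points for the mean and bars for the SD of 3 atretic (red) and 3 healthy (blue) libraries. Means over all libraries run from 24.7 FPKM for TOP2A to 2.21 FPKM for NUF2, and the red point lies below the blue one in each gene.

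Loci of 3 further genes were recognised only by their description or gene number in the deposited table and are not counted among the 28. The locus described as G2/mitotic-specific cyclin-B1 (CCNB1) on chromosome 16 (10937264 to 10950106) had 42.1, 41.8 and 40.7 CPM in atretic and 55.0, 52.5 and 66.2 CPM in healthy. Its groups did not overlap, with log2 fold changes of -0.48 and, without healthy replicate 3, -0.38 (edgeR adjusted p = 0.218 and 0.0141). A second locus with a cyclin B1 description on chromosome 6 (83332270 to 83336355) varied within the healthy group, with 8.45, 8.75 and 10.7 CPM against 0.62, 10.1 and 7.62 CPM. Its groups overlapped, and its log2 fold change was positive, at 0.61 (SE 0.82, edgeR adjusted p = 0.812). The gene number of this second locus is that of CCNB1 in a reference annotation, which places CCNB1 on chromosome 16. The gene number of the first locus was not found there. PTTG1, the gene of securin, the inhibitor of separase, on chromosome 5 (74918596 to 74946743), had 6.05, 9.51 and 5.35 CPM against 11.5, 12.1 and 13.9 CPM, without overlap. PTTG1 had a log2 difference of -0.85 (SE 0.25, edgeR adjusted p = 0.276) and -0.77 without healthy replicate 3 (edgeR adjusted p = 0.0417). BIRC5, the gene of survivin, a partner of AURKB, on chromosome 11 (9327583 to 9337555), had 133, 119 and 138 CPM against 131, 130.4 and 86.5 CPM. The groups of BIRC5 overlapped and healthy replicate 3 was the lowest library (log2 fold change 0.17, SE 0.18, edgeR adjusted p = 0.771, and -0.01 without that library). CENPE, CENPF, UBE2C and MKI67 were not analysed here.

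The deposited table's Gene Ontology annotation, which covered 26 of the 28 genes, gave the kinetochore for 7 of them, against 66 of 8981 annotated tested loci. Mitotic cytokinesis was given for 5, against 25 of all annotated tested loci, and microtubule binding for 6, against 97. The annotation was sparse, since the term mitotic cell cycle was given for 0 of the 26 and cell cycle and cell division for 2 each. The 28 loci lay on 16 chromosomes.

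Other genes of the pathway were taken from lists of kinetochore, spindle and cohesion genes, of APC/C subunits and regulators, of regulators of mitotic transcription and of DNA replication genes. These lists held 80, 16, 23 and 34 genes, of which 66, 15, 21 and 31 were found by name. Of 65 tested other mitosis genes, none passed edgeR with 6 libraries. By edgeR, 31 were lower at an unadjusted p under 0.05, against 6.41% of all tested loci. DESeq2 called 7 lower, against 1.75% of all tested loci. All atretic libraries were below all healthy ones in 40 (61.5%), against 10.8% of all tested loci and 14.2% of the protein-coding ones. The median log2 fold change of the list was -0.42. Without healthy replicate 3, edgeR called none higher and 17 lower (26.2%), against 7.91% of all tested loci and 10.9% of the protein-coding ones. The 4 with the smallest unadjusted p were the centromere protein gene CENPI, the kinetochore gene SKA1, DEPDC1 and the chromosomal passenger gene CDCA8. CENPI had 18.5, 20.3 and 20.5 CPM in atretic and 30.4, 34.0 and 38.5 CPM in healthy, and its log2 fold change was -0.80 (SE 0.13, edgeR adjusted p = 0.124, or 0.00167 without healthy replicate 3). SKA1 was low throughout, with 2.32, 3.01 and 2.71 CPM against 5.06, 4.9 and 4.97 CPM, and the groups were well apart (log2 fold change -0.89, SE 0.19, edgeR adjusted p = 0.175, or 0.0188 without healthy replicate 3). DEPDC1 and CDCA8 had log2 fold changes of -0.56 and -0.53 (edgeR adjusted p = 0.186 and 0.219, or 0.00762 and 0.0214 without healthy replicate 3).

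Of 31 tested DNA replication genes, none passed edgeR with 6 libraries. By edgeR, 10 were lower at an unadjusted p under 0.05, against 6.41% of all tested loci. DESeq2 called RRM1, MCM3 and POLA1 lower, against 1.75% of all tested loci. In 15 (48.4%) all atretic libraries were below all healthy ones, against 10.8% of all tested loci and 14.2% of the protein-coding ones. None was higher without overlap. The median log2 fold change of the list was -0.30. Without healthy replicate 3, edgeR called none higher and 9 lower (29.0%), against 7.91% of all tested loci and 10.9% of the protein-coding ones. RRM1, a subunit of ribonucleotide reductase, had 66.5, 72.9 and 69.3 CPM against 94.5, 93.5 and 91.0 CPM. MCM3, a subunit of the replicative helicase, had 48.7, 54.0 and 49.3 CPM against 63.9, 67.8 and 71.0 CPM. The groups of both were apart, with log2 fold changes of -0.42 and -0.41 (edgeR adjusted p = 0.2 and 0.217, or 0.00571 and 0.0169 without healthy replicate 3). The polymerase subunit gene POLA1 and the helicase loader gene CDC6 had log2 fold changes of -0.42 and -0.62 (edgeR adjusted p = 0.234 and 0.274, or 0.0209 and 0.046 without healthy replicate 3).

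Of 13 tested APC/C genes, none passed with 6 libraries by edgeR or DESeq2, and the median log2 fold change was -0.22. By edgeR, 3 were lower at an unadjusted p under 0.05, against 6.41% of all tested loci. FZR1, the activator that takes over from CDC20 late in mitosis, was called lower without healthy replicate 3, with 45.4, 51.1 and 46.0 CPM in atretic and 64.0, 63.4 and 56.0 CPM in healthy (log2 fold change -0.43, edgeR adjusted p = 0.00979). That is 1 of 13, or 7.69%, against 7.91% of all tested loci in that fit. The APC/C inhibitor FBXO5 and the subunits ANAPC5 and ANAPC1 had log2 fold changes of -0.36, -0.41 and -0.23 (edgeR adjusted p = 0.307, 0.326 and 0.47), and none of them passed without that library. Of 20 tested regulators of mitotic transcription, none passed with 6 libraries by edgeR. At an unadjusted p under 0.05 by edgeR, 5 were lower, against 6.41% of all tested loci. DESeq2 called 1 of these regulators lower, against 1.75% of all tested loci. Their median log2 fold change was -0.11, and the groups were apart in 7 that were lower and in 3 that were higher (E2F3, TFDP2 and NFYC, named after their values were seen), against 10.8 and 11.1% of all tested loci. RBL1, a pocket protein that restrains E2F factors, had 21.8, 23.2 and 23.6 CPM against 31.8, 31.1 and 32.5 CPM (log2 fold change -0.48, edgeR adjusted p = 0.186, DESeq2 adjusted p = 0.00294). FOXM1, an activator of late cell cycle genes, had 13.4, 13.2 and 11.6 CPM against 16.8, 17.5 and 24.5 CPM (log2 fold change -0.62, edgeR adjusted p = 0.279). RBL1 and FOXM1 were the 2 called lower without healthy replicate 3 (edgeR adjusted p = 0.012 and 0.0452), which is 2 of 20, against 7.91% of all tested loci and 10.9% of the protein-coding ones. E2F1, on a locus that also covers PXMP4, and E2F7 had log2 fold changes of -0.69 and -0.86 (edgeR adjusted p = 0.316 for both). Without that library these were -0.42 and -0.47 (edgeR adjusted p = 0.0847 and 0.0563), and the healthy values of E2F7 were 16.9, 22.0 and 37.4 CPM.

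**Figure D4:**
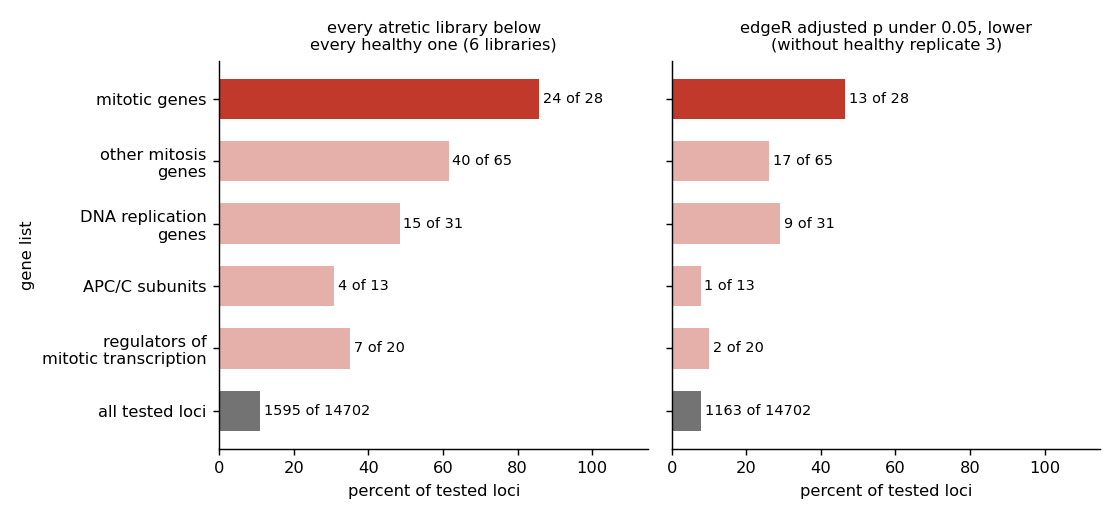
Percent of the tested loci of each gene list with all atretic below all healthy libraries (left, 6 libraries) and called lower by edgeR without healthy replicate 3 (right). The mitotic genes have 24 of 28 on the left and 13 of 28 on the right, against 1595 and 1163 of 14702 among all tested loci.

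By library, the median level of the mitotic genes, as log2(CPM + 0.5) minus each gene's mean over the 6 libraries, was -0.28, -0.21 and -0.18 in atretic and 0.17, 0.17 and 0.46 in healthy. The DNA replication genes had -0.19, -0.01 and -0.15 against 0.16, 0.17 and 0.04. In healthy replicates 1 and 2 both lists thus stood at about the same height, while in healthy replicate 3 the mitotic genes stood above the replication genes. The median of the mitotic genes minus that of the replication genes, was 0.42 in healthy replicate 3 and lay between -0.21 and -0.0025 in the other 5 libraries. This difference is taken within a library, so that no scaling of the libraries can change it. Its part in the comparison of the groups was not tested beyond the fits without that library.

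**Figure D5:**
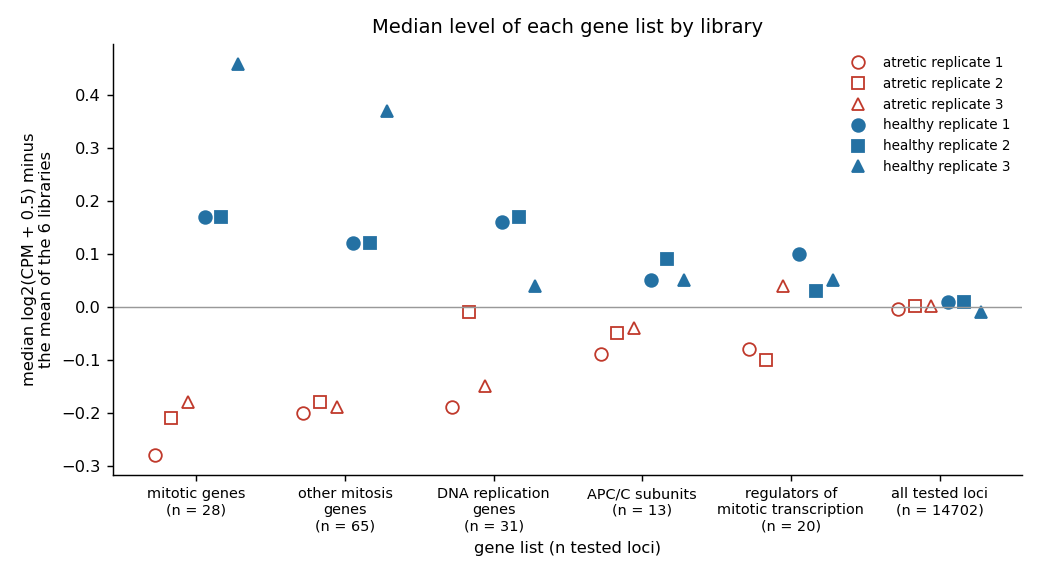
Median level of each gene list in each library, as log2(CPM + 0.5) minus the mean of the 6 libraries, for atretic (open red) and healthy (filled blue) libraries. The mitotic genes run from -0.28 to -0.18 in atretic and from 0.17 to 0.46 in healthy, and healthy replicate 3 is high for the mitotic lists but at 0.04 for the DNA replication genes.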

How the data were processed

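RNA sequencing of granulosa cells gave 6 libraries, 3 atretic and 3 healthy, grouped by the initials of their titles. The authors deposited 1 table with read counts and FPKM values per locus, per the file headers. StringTie 2.1.6, HISAT2 2.0.4, SAMtools, FastQC 0.11.9 and cutadapt 1.9 are named in the submitters' processing notes, without roles. The sources used here do not state the genome build, the annotation or whether counting used strand, and coordinates stand as in the table. Deposited FPKM values are scaled by length and library size and served for levels between genes.

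Counts were tested with edgeR 4.0.16 (quasi-likelihood, TMM normalisation, group alone, two-sided, Benjamini-Hochberg adjustment at 0.05) over 14702 named loci with a mean FPKM of at least 1. CPM values use the same TMM-normalised library sizes over the tested loci. Log2 fold changes are atretic minus healthy, and their SE comes from the quasi-likelihood F statistic. Loci without a gene name, 5640 with 8.88 to 11.5% of the counts, entered neither the library sizes nor the tests. DESeq2 1.42.0 and limma 3.58.1 on voom weights and on log2(FPKM + 1), where a fold change understates that of low genes, were alternatives. Python 3.11.15 (pandas 2.3.3, matplotlib 3.10.9) and R 4.3.3 ran the work, and the fit was tested on simulated counts.

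The members and gene lists were chosen with earlier results of these data known. The rule named all members and, of each companion list, the 4 genes with the smallest unadjusted p. Same-numbered libraries of the 2 groups did not deviate together (correlations -0.137, 0.0584 and 0.000242), and the numbers were not taken as pairs. This check cannot exclude pairs, since healthy replicate 3 lay far from the other healthy libraries and sets most of the deviations in its group. Promoter and protein sequences were not analysed here.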

Additional observations from a re-analysis of the deposited data

How the results depend on the processing

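With the main fit counted there were 23 settings. In the settings other than the main fit, the log2 fold changes of the 28 genes gave 603 values. Of these, 543 kept the sign and side of the threshold of the main fit, 50 kept the sign and passed newly and 10 changed sign. The changes of sign were all in NUSAP1 and KIF23. NUSAP1 turned to 0.01 with TMM over protein-coding loci, 0.04 with a mean FPKM of at least 5, 0.04 without atretic replicate 2, 0.0011 without healthy replicate 2 and 0.02 with TMM over protein-coding loci and without healthy replicate 3. KIF23 turned to 0.03 without atretic replicate 2, 0.28 without healthy replicate 3, 0.29 by DESeq2 without that library and 0.37 with TMM over protein-coding loci without it. The cause was not tested. With leave-one-out fits NUSAP1 ranged from -0.09 to 0.04 and KIF23 from -0.20 to 0.28. With leave-one-out fits, mitotic genes called lower ranged from 0 to 13 and those called higher were 0, the median log2 fold change ranged from -0.56 to -0.40 and genes without overlap from 24 to 26. Without healthy replicate 3 the share of all tested loci without overlap and lower was 25.1%, where it was 10.8% with 6 libraries. In that fit 1 mitotic gene (KIF23) was apart and higher. For the other leave-one-out fits the share of all tested loci is not given here, so their counts without overlap have no background. The 13 came from leaving out healthy replicate 3, and leaving out any other library gave 0. DESeq2 called 9 lower with 6 libraries. After the data were seen, 3 alternatives were added: DESeq2 without healthy replicate 3 (19 lower, 1 higher, median -0.39), TMM over protein-coding loci without it (9 lower, 1 higher, median -0.31), and the 3 loci known by description (26 of 31 without overlap). That last set held the cyclin B1 locus on chromosome 16 and left out the one on chromosome 6, whose groups overlapped. With a mean FPKM of at least 5, 14 mitotic genes without overlap were counted, since fewer of the 28 were tested. Of the genes with overlap, CCNA2, MAD2L1 and KIF23 (4.34, 3.42 and 3.85 FPKM) fell below that filter and NUSAP1 (11.7 FPKM) passed it. The number tested and the share of all tested loci are not given here, so the 14 cannot be set against the counts above. The replicate numbers were not taken as pairs (not every library correlated best with its own number), although that check cannot exclude pairs. With a replicate block edgeR called 0 mitotic genes and 0 loci lower and 0 higher, with a median of -0.51, and KIF23 turned to 0.0012. Over all loci, 3 were called lower and 7 higher. Lower loci were 1 with library totals, voom, FPKM plus 1, FPKM plus 0.1, robust dispersion or a mean FPKM of at least 5, and 0 with no filter or filterByExpr. Higher loci were 2 with no filter and with filterByExpr, 16 with a mean FPKM of at least 5 and 33 with unnamed loci. DESeq2 gave 257 lower and 372 higher, or 1518 and 2114 without healthy replicate 3, and TMM over protein-coding loci without it 790 and 2192. Leave-one-out fits gave 0 to 1163 lower and 0 to 1598 higher. Counting depth limited none of the 28 genes, whose lowest count was 417, while floors and counts cover counting error only.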
